A study of Mus musculus with 34 samples.

Results

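The enzymes that turn squalene into cholesterol were examined in mouse liver. They are the products of Sqle, Lss, Cyp51, Msmo1, Nsdhl, Hsd17b7, Ebp, Sc5d and Dhcr7, taken by symbol from a table of 35976 gene symbols, and all 9 were present. RNA had been sequenced from 34 livers, 1 library each. All mice were C57BL/6 and homozygous for both TetO-Cas9, a Cas9 gene under a tetracycline-responsive promoter, and Rosa-rtTA, the transactivator that switches that promoter on. All had been kept on a Western Diet for 3 months and had received a guide RNA by adeno-associated virus (AAV). The gene aimed at was Srebf1 in 5 livers, Irs1 in 5, Bcl6 in 5, Smyd2 in 6 and Tbx3 in 7, and these groups are called knockouts (KO) after their titles. Guides against GFP (sgGFP, 4 livers) or LacZ (sgLacZ, 2 livers) gave 6 control livers that carry Cas9, the transactivator, the virus and the diet as well. The sources used here do not give the age or sex of the mice, the dose of virus or the share of cells edited.

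Cholesterol is built from acetyl-CoA through mevalonate to squalene, and the later enzymes oxidise, cyclise, demethylate and reduce squalene until cholesterol is reached. The pathway is a classic target of the sterol regulatory element binding proteins (SREBPs), membrane-bound transcription factors that are released when sterols in the endoplasmic reticulum run low. Srebf2 encodes the SREBP best known for cholesterol synthesis, and Srebf1 encodes the SREBP best known for fatty acid synthesis. The liver is a main site of this synthesis, and dietary cholesterol is known to lower it.

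Levels are in FPKM, a fragment count normalised for transcript length and for library size, so that genes can be compared with each other. The library depth implied by the FPKM steps was 2110000 to 3130000 reads, and 1 read on a transcript of 2000 bases is then worth 0.192 FPKM at the median depth. Every liver expressed hepatocyte genes, with Alb at 36630 to 155400 FPKM. In bulk tissue, fewer cells of a type and less RNA per cell cannot be told apart. All 9 enzymes passed the filter on low values (at least 5 livers with an FPKM of at least 1), as did 19295 genes in all. Changes below are on the log2(FPKM + 1) scale, tested with limma over all 34 livers, with two-sided p-values adjusted by the Benjamini-Hochberg method over the 19295 genes and a threshold of 0.05.

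In the 6 control livers the most abundant transcript was Sc5d, the desaturase of the late sterol ring (chromosome 9, 42251595 to 42264256, minus strand, GRCm38), at 912.5 ± 182.7 FPKM (SD). Ebp, the isomerase that shifts the ring double bond (chromosome X, 8185329 to 8193512, minus strand), followed at 287.8 ± 54.3. Dhcr7, the reductase that completes cholesterol from its dehydro precursor (chromosome 7, 143823145 to 143848410, plus strand), stood at 192 ± 48.2. The control ranges of these 3 last-step enzymes lay above those of every earlier one. Hsd17b7, the ketosteroid reductase of the demethylation complex (chromosome 1, 169949535 to 169969241, minus strand), stood at 86.1 ± 23.4 FPKM. Msmo1, the monooxygenase that starts removal of a pair of ring methyl groups (chromosome 8, 64718139 to 64733792, minus strand), stood at 84.6 ± 10.8. The levels of Hsd17b7 and Msmo1 differed by less than their spread. Lss, lanosterol synthase, which closes the sterol rings (chromosome 10, 76531588 to 76557138, plus strand), stood at 49.9 ± 14.8 FPKM. Cyp51, the cytochrome that demethylates lanosterol (chromosome 5, 4081145 to 4104746, minus strand), stood at 35.9 ± 11.03, with ranges that overlapped those of Lss. Nsdhl, the dehydrogenase that removes the oxidised methyl carbon (chromosome X, 72918557 to 72958514, plus strand), stood at 14.9 ± 4.84, and Sqle, squalene epoxidase, the entry step (chromosome 15, 59315077 to 59331192, plus strand), at 13.7 ± 4.37. The levels of Nsdhl and Sqle did not differ beyond their spread either. The entry enzyme Sqle was the lowest of the 9 by its mean.

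The sgGFP and sgLacZ livers were set against each other first. In the limma fit 0 of the 9 enzymes differed between them, and 0 reached an unadjusted p under 0.05, where 6.68% of all genes did. The widest gap was in Cyp51, at 30.6 FPKM in the sgGFP and 46.5 in the sgLacZ livers. With 2 sgLacZ livers this comparison is imprecise, and the SE of the Cyp51 difference was 0.44 on the log2 scale.

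Across the 34 livers the enzymes had very different ranges. Sqle spanned a 23.4-fold range, from 4.56 FPKM in Irs1 KO replicate 2 to 106.6 in Srebf1 KO replicate 2. Cyp51 spanned 17.6-fold, Msmo1 12.3-fold and Nsdhl 10.4-fold. At the other end Ebp spanned 2.41-fold and Sc5d 2.37-fold. The plot of each enzyme by liver shows that the wide ranges belong to the enzymes that were high in Srebf1 KO livers.

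**Figure D1:**
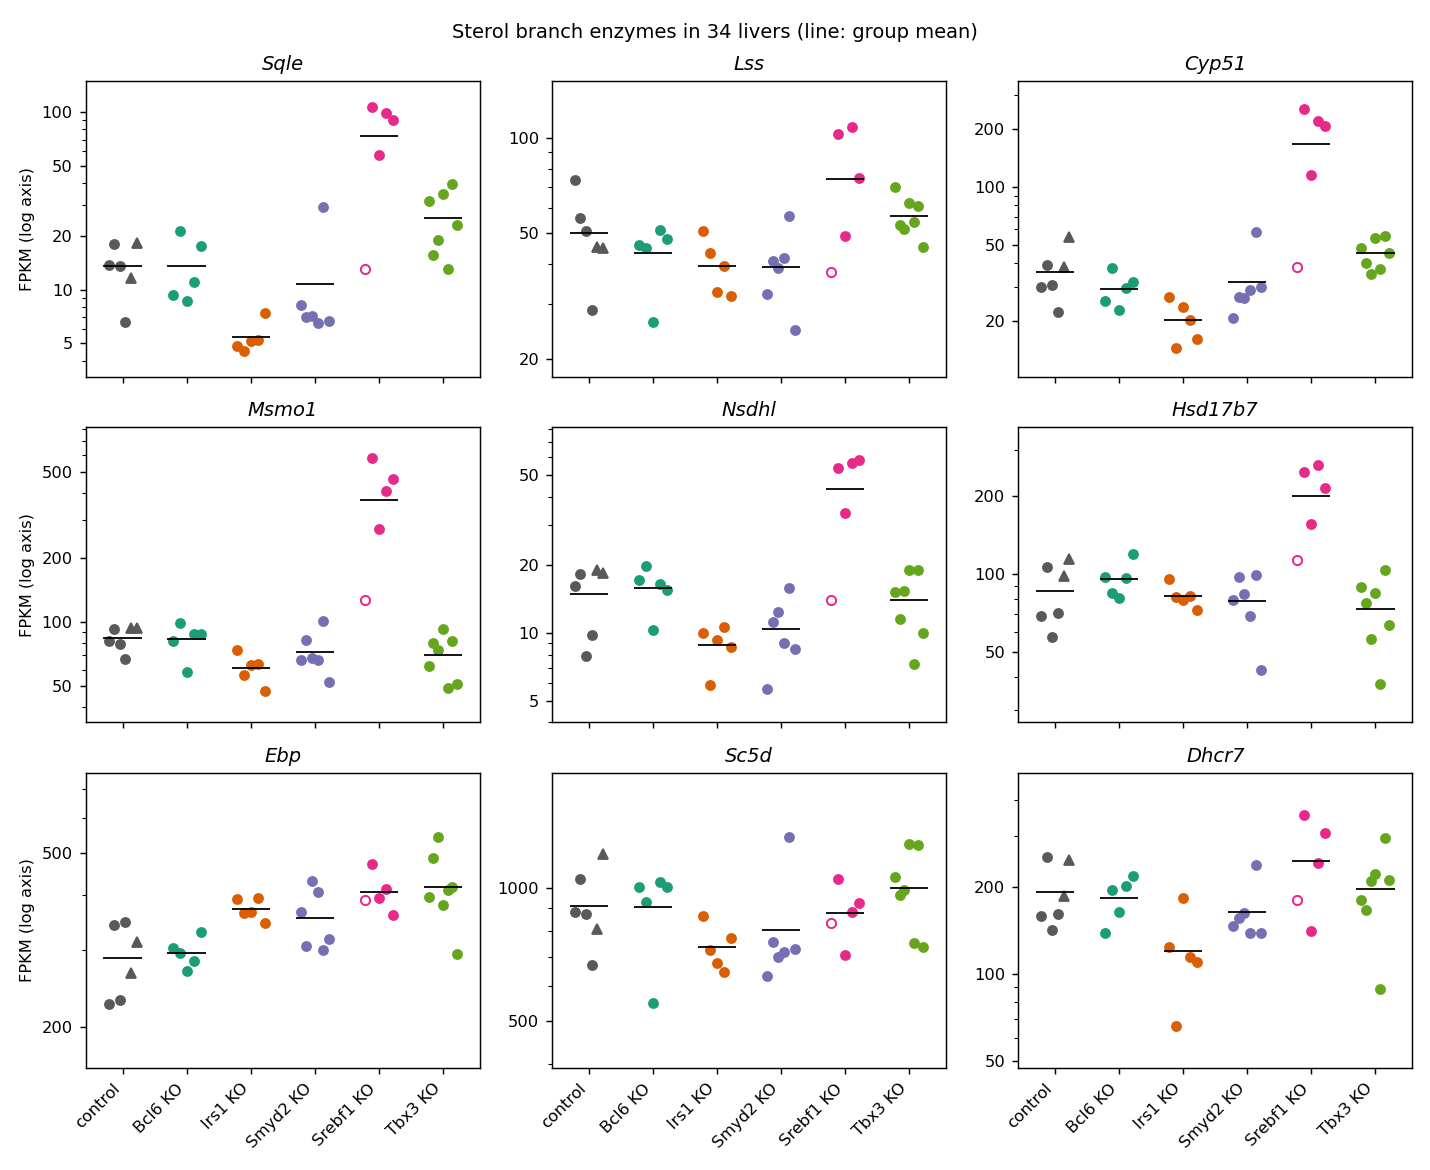
FPKM of each of the 9 enzymes (log axis) in every liver, by group, with a line at the group mean. Triangles are the 2 sgLacZ livers among the controls, and the open circle is the library labelled Srebf1 KO replicate 1. In the other 4 Srebf1 KO livers Sqle stood at 57.5 to 106.6 FPKM, above all other livers, while for Sc5d and Dhcr7 the Srebf1 KO and control livers overlapped.

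To show the start regions of the enzymes that rose in Srebf1 KO livers, the bases just upstream of the RefSeq start (GRCm38.p6) are printed for Cyp51, Msmo1, Nsdhl and Hsd17b7. Ebp and Sc5d, which were not called there, and Hmgcs1, the early enzyme whose level was most like theirs, are printed for comparison. Capitals mark matches on either strand to CCAAT, a box bound by nuclear factor Y that reads ATTGG on the other strand, and to TCACNCCAC, one form of the sterol regulatory element. The 2 motifs did not overlap.
Cyp51 (chr5:4104698-4104817, minus strand): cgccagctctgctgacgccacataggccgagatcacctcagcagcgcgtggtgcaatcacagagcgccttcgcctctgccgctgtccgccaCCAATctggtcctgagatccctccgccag
Msmo1 (chr8:64733579-64733698, minus strand): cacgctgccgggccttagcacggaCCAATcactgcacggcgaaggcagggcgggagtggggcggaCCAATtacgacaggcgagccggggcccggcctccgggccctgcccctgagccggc
Nsdhl (chrX:72918401-72918520, plus strand): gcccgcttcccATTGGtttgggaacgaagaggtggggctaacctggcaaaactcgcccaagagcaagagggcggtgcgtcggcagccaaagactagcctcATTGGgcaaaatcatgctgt
Hsd17b7 (chr1:169969206-169969325, minus strand): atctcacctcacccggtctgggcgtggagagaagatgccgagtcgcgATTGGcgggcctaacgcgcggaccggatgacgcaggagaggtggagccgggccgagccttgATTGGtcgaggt
Ebp (chrX:8193513-8193632, minus strand): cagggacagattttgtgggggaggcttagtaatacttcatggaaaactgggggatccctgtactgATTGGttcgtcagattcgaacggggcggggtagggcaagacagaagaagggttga
Sc5d (chr9:42264301-42264420, minus strand): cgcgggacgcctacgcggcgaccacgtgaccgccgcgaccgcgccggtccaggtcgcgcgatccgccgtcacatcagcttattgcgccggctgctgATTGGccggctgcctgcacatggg
Hmgcs1 (chr13:119690164-119690233, plus strand): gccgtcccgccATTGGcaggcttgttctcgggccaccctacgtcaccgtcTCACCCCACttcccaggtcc
Of the 9 enzymes, 8 had an entry in the table of start regions. At least 1 CCAAT match lay within 250 bases upstream of a start of 8 of the 8 enzymes, and in 8 of their 10 windows, against 33.85% of 32851 mouse windows of that length. The TCACNCCAC form was found upstream of 0 of the 8 enzymes and in 1.05% of all windows. Hmgcs1 holds it as TCACCCCAC, from base -137 to base -129. Its printed stretch, from base -187 to base -118, was cut around this match, where those of the others run from -120 to -1. The windows of Idi1, Tm7sf2, Insig1 and Srebf2 were searched as well and held 0 matches to this form. These matches describe letters in a window and are neither sites nor causes.

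The mRNA of the gene aimed at was compared first, since it bears on the labels. The knockout and control ranges overlapped for Bcl6 (46.7 to 100.1 against 27.1 to 104.1 FPKM), Irs1 (25.4 to 35.8 against 20.2 to 27.6), Smyd2 (61.7 to 121.4 against 81.6 to 147.4) and Tbx3 (80.0 to 248.5 against 45.9 to 147.1), and 0 of these 4 differed by limma. These mRNA levels therefore check none of those labels.

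The Srebf1 guide is the 1 guide aimed at an SREBP gene. Srebf1 mRNA itself stood at 515.9, 498.8, 526.7 and 631.7 FPKM in the libraries labelled Srebf1 KO replicates 2 to 5, below all 6 controls (1095 to 2177). The library labelled Srebf1 KO replicate 1 held 1908 FPKM, within the control range, which goes against its label. Whether the guide changes the amount of the mRNA or only its sequence is not given, so results are stated with that library and without it.

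In Srebf1 KO livers 5 of the 9 enzymes rose and 0 fell, where 0.197% of all genes tested were higher and 0.181% lower. The median log2 change of the 9 enzymes was 1.18, and that of all genes tested was -0.05. When the library labelled Srebf1 KO replicate 1 was left out, the 5 enzymes called were again Sqle, Cyp51, Msmo1, Nsdhl and Hsd17b7, beside 0.14% of genes higher and 0.135% lower. The 5 include the entry step and 4 enzymes of the demethylation of lanosterol.

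Sqle, the entry enzyme, stood at 13.1, 106.6, 57.5, 99.0 and 89.6 FPKM in Srebf1 KO replicates 1 to 5, against 6.60 to 18.4 in the controls. The library labelled replicate 1 lay within the control range, and the other 4 were above every control. Its log2 change was 2.10 ± 0.41 (SE, limma adjusted p = 0.0134), or 2.63 ± 0.34 (adjusted p = 3.276e-05) without replicate 1. The call was lost without Srebf1 KO replicate 2 or without replicate 4, and its adjusted p was at most 0.0857 over the alternatives tried.

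Cyp51, the lanosterol demethylase, stood at 38.2, 254.1, 114.9, 220.7 and 207.6 FPKM, against 22.4 to 54.5 in the controls. Again 4 of the 5 livers were above all controls. The log2 change was 1.97 ± 0.31 (limma adjusted p = 0.00182), and 2.43 without replicate 1. Cyp51 overlaps Akap9, an anchoring protein gene on the other strand, and the strand setting of the counting is not given, so reads of the pair may not be fully separated. Akap9 stood at 578.2 ± 44.7 FPKM in Srebf1 KO and 544.4 ± 76.0 in control livers (log2 change 0.10 ± 0.08, limma adjusted p = 0.619). Lss likewise overlaps an antisense gene, 4930483K19Rik, which did not exceed 3.102 FPKM in any liver.

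The 3 other demethylation enzymes rose as well. Msmo1 stood at 126.2, 582.9, 271.1, 409.5 and 465.1 FPKM against 67.2 to 94.0 in the controls, so that all 5 Srebf1 KO livers were above all 6 controls (log2 change 1.95 ± 0.24, limma adjusted p = 3.447e-05). Msmo1 was the 1 enzyme of the 9 that stood above every control even in the library labelled replicate 1 and was called. Nsdhl stood at 13.96, 54.0, 33.8, 56.8 and 58.5 FPKM against 7.86 to 19.0 (1.39 ± 0.30, adjusted p = 0.0318). Hsd17b7 stood at 113, 248.3, 156.5, 263.8 and 214 FPKM against 57.1 to 114.8 (1.18 ± 0.23, adjusted p = 0.0154). For both, 4 of the 5 livers were above all controls. Their calls were the least stable of the 5. Leaving out sgGFP replicate 1 or 3, or Srebf1 KO replicate 2 or 4, ended the call of both, and leaving out sgGFP replicate 4 or Srebf1 KO replicate 3 or 5 ended that of Nsdhl. The adjusted p over the alternatives reached 0.135 for Nsdhl and 0.0588 for Hsd17b7, and their lowest log2 changes were 1.23 and 1.06.

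The other 4 enzymes did not pass the threshold. Ebp stood at 391.5, 471.2, 394.3, 414.6 and 360.4 FPKM, and all 5 livers were above the 6 controls, which reached 347.1. The log2 change of Ebp was 0.51 ± 0.13, with a limma adjusted p of 0.0610 that misses the threshold. Over the alternatives tried that adjusted p ran from 0.0318 to 0.176, so Ebp passed under some of them. Lss, which acts between Sqle and Cyp51, stood at 37.7, 102.6, 49.0, 107.9 and 74.5 FPKM against 28.7 to 73.7 (0.51 ± 0.24, adjusted p = 0.35), and 3 livers were above all controls. Dhcr7 stood at 180.8, 356.2, 140.8, 243.2 and 307.2 FPKM and overlapped the control range of 142.4 to 254.2 (0.31, 95% interval -0.20 to 0.82). Sc5d stood at 832.2, 1047, 707.8, 881.4 and 926.7 FPKM, all within the control range of 670.3 to 1191 (-0.04, 95% interval -0.40 to 0.32). The interval for Sc5d ends well below the lower ends for Cyp51 (1.33) and Msmo1 (1.46), the most changed demethylation enzymes, although the changes of different enzymes were not tested against each other.

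**Figure D2:**
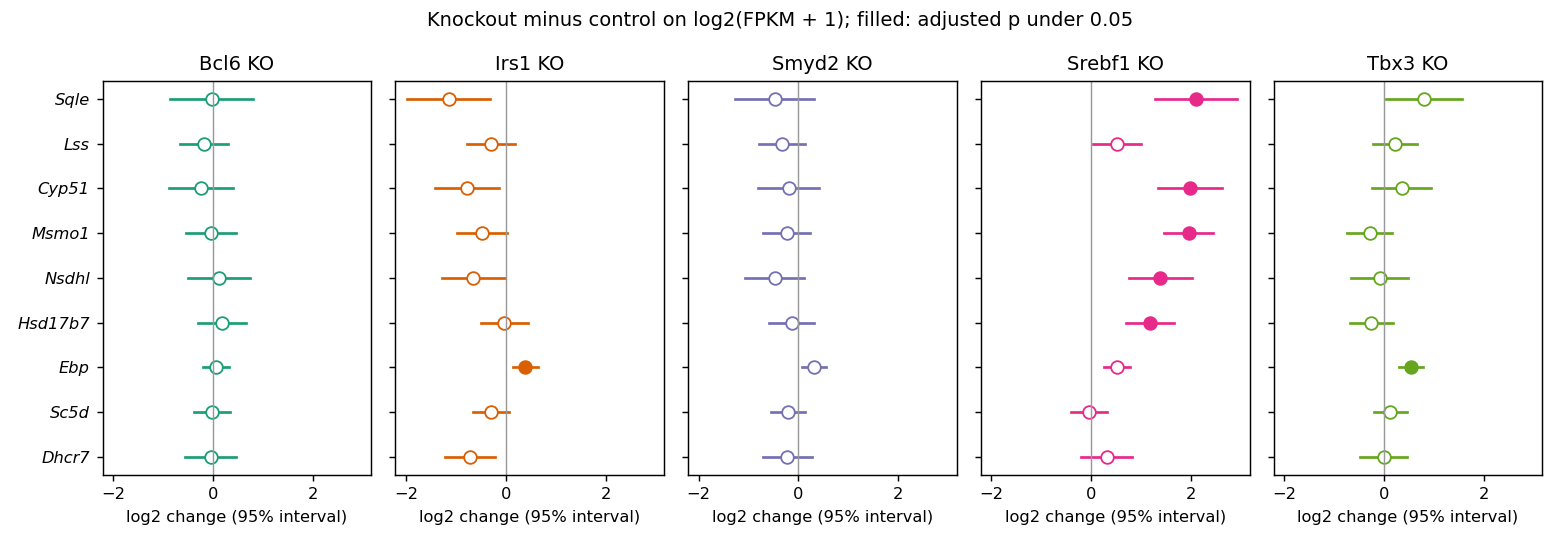
Log2 change of each enzyme in each knockout against the 6 control livers (points, with 95% intervals from the limma fit); filled points have an adjusted p under 0.05. Filled points are 5 enzymes in Srebf1 KO, and Ebp alone in Irs1 KO and in Tbx3 KO livers.

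The rest of the pathway was read from lists chosen by function. Of 9 mevalonate enzymes 3 rose in Srebf1 KO livers and 0 fell. Idi1, the isomerase of the isoprenoid unit, rose from 3.82 ± 1.97 to 25.8 ± 13.3 FPKM (log2 change 2.37 ± 0.34, limma adjusted p = 0.000432). Hmgcs1, the synthase of HMG-CoA, rose from 409.1 ± 96.3 to 1362 ± 701 FPKM (1.54 ± 0.29, adjusted p = 0.0134). Fdft1, squalene synthase, which makes the substrate of Sqle, rose from 241.1 ± 22.8 to 607.2 ± 270.1 FPKM (1.14 ± 0.24, adjusted p = 0.0247). With single livers left out, the Hmgcs1 call was lost without Srebf1 KO replicate 4. The Fdft1 call was lost without any 1 of Srebf1 KO replicates 2 to 5 or of sgGFP replicates 1 and 3. Over all alternatives tried, the limma adjusted p reached 0.0506 for Idi1, 0.0996 for Hmgcs1 and 0.166 for Fdft1, each above the threshold.

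Among 6 other late sterol enzymes and partners that were tested, 1 rose. It was Tm7sf2, a sterol reductase that acts just after Cyp51, at 84.4 ± 23.0 against 37.3 ± 6.14 FPKM (log2 change 1.13 ± 0.21, limma adjusted p = 0.0134, but 0.0538 without Srebf1 KO replicate 4). When the library labelled replicate 1 was left out, 2 of the 6 rose, Tm7sf2 and 0610007P14Rik. Lbr, the lamin B receptor, which has the same reductase activity, was not called, at 36.2 ± 7.40 against 37.1 ± 9.67 FPKM. Of 4 electron donors to these oxidations (Por, Cyb5a, Cyb5b and Cyb5r3) 0 were called by limma, and 2 had an unadjusted p under 0.05. Among all genes tested 13.1% had an unadjusted p under 0.05 in this comparison.

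Of 14 SREBP regulators and uptake genes 0 were called by limma in Srebf1 KO livers, and 4 had an unadjusted p under 0.05. The share of all genes tested with such a p was 13.1%. Srebf2 stood at 62.6 ± 11.8 against 42.9 ± 6.47 FPKM (log2 change 0.52 ± 0.14, limma adjusted p = 0.0831), with 41.8 in the library labelled replicate 1 and 64.8 to 71.3 in the other 4. Without that library Srebf2 was called, with a log2 change of 0.66 ± 0.13 (adjusted p = 0.0174), and Srebf1 itself was called lower. With all Srebf1 KO livers Srebf1 was not called (-1.06, limma adjusted p = 0.0611). The library was set aside for its high Srebf1 level, so the lower Srebf1 call without it follows from that choice and is no separate result. Insig1, which retains SREBPs in the endoplasmic reticulum, is a known sterol-regulated gene. It was not called and stood at 211.1 ± 24.4 against 190.8 ± 51.0 FPKM. Of 12 tested genes of sterol fate (bile acid synthesis, esterification and efflux) 0 were called and 5 had an unadjusted p under 0.05. Among 10 fatty acid synthesis genes 1 fell, Acacb, the acetyl-CoA carboxylase at mitochondria, at 169.5 ± 58.7 against 674.5 ± 175.7 FPKM (-1.999 ± 0.22, adjusted p = 2.675e-06). Of the 10 genes, 8 had an unadjusted p under 0.05 in the limma fit. The median log2 change of the 10 was -0.85, beside -0.05 for all genes tested.

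**Figure D3:**
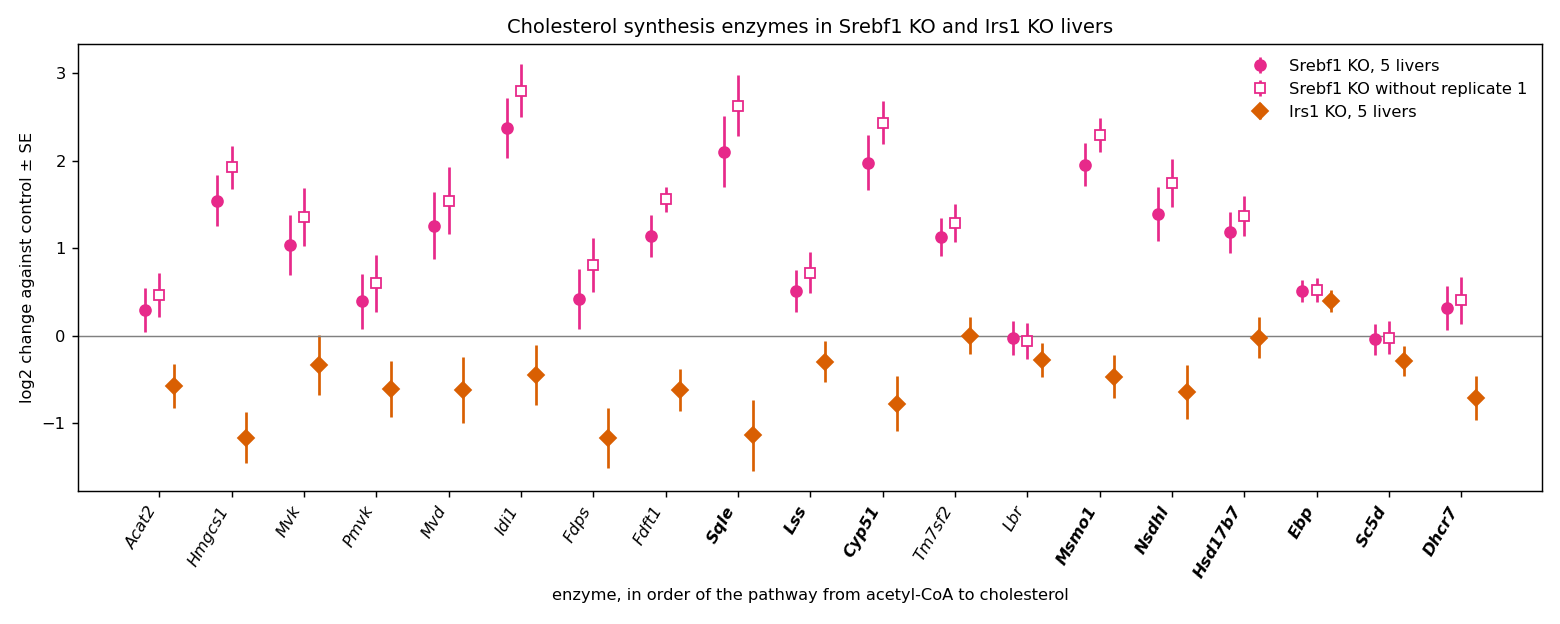
Log2 change against control (points) with its SE (bars) for cholesterol synthesis enzymes, ordered from acetyl-CoA to cholesterol, in Srebf1 KO livers, in Srebf1 KO livers without the library labelled replicate 1, and in Irs1 KO livers; the 9 enzymes described here are in bold. In Srebf1 KO livers Idi1 (2.37), Sqle (2.10), Cyp51 (1.97) and Msmo1 (1.95) stood highest, and Sc5d (-0.04) lay at 0.

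Cell type markers were read beside the Srebf1 KO result. Of 8 hepatocyte markers 1 rose (Serpina1c), and the summed marker level was 81660 to 99400 FPKM against 61480 to 83420 in the controls. Of 8 markers each for macrophages, stellate cells, endothelial cells, cholangiocytes and lymphocytes 0 were called by limma, and 1, 3, 2, 2 and 1 had an unadjusted p under 0.05. Such a p was reached by 13.1% of all genes tested. The summed stellate markers were 512.5 to 885.2 FPKM against 799.2 to 1768 in the controls. The part of cell composition in the enzyme changes was not tested.

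In Irs1 KO livers, which lack an adaptor through which the insulin receptor signals if editing succeeded, 1 of the 9 enzymes rose and 0 fell. Among all genes tested 3.24% were higher and 7.61% lower. The enzyme that rose was Ebp, at 393.3, 364.5, 367.3, 394.6 and 346.7 FPKM against 225.7 to 347.1 in the controls. In 4 of the 5 livers it was above all controls (log2 change 0.39 ± 0.13, limma adjusted p = 0.0398). This call is weak, with adjusted p of 0.0168 to 0.108 over the alternatives tried, and was lost without the sgLacZ livers and without any 1 of 7 single livers (Irs1 KO replicates 1 to 4, sgGFP replicates 1 and 3, sgLacZ replicate 1).

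The other 8 enzymes did not pass the threshold in Irs1 KO livers, and their log2 changes were below 0, apart from Hsd17b7, whose -0.02 turned to 0.21 under median scaling. Sqle stood at 4.85, 4.56, 5.19, 5.23 and 7.39 FPKM, and 4 of the 5 livers were below every control (-1.14 ± 0.41, limma adjusted p = 0.0655). Dhcr7 stood at 123.9, 65.9, 183.9, 114.3 and 110.3 FPKM, and 4 of the 5 were below every control (-0.71 ± 0.25, adjusted p = 0.0612). Cyp51 stood at 26.8, 14.4, 23.8, 20.2 and 16.2 FPKM (-0.78 ± 0.31, adjusted p = 0.108). For Cyp51, Msmo1, Nsdhl and Sc5d, as for Sqle and Dhcr7, all 5 livers were below the control mean. The median log2 change of the 9 was -0.47 where that of all genes tested was -0.12. The median of all genes moved to 0.11 when libraries were scaled to equal medians, and the Sqle change was then -0.91.

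Enzymes around the branch were called in Irs1 KO livers. Of 9 mevalonate enzymes 2 fell and 0 rose. Hmgcs1 fell to 178.1 ± 11.6 from 409.1 ± 96.3 FPKM (log2 change -1.17 ± 0.29, limma adjusted p = 0.00965), and all 5 livers were below all controls. Fdps, the farnesyl diphosphate synthase, fell to 121.9 ± 22.2 from 295.6 ± 117.5 FPKM (-1.17 ± 0.34, adjusted p = 0.0235), a call that was lost under median scaling and without the sgLacZ livers. Of 6 other late sterol genes 1 fell. Ebpl, a relative of Ebp, fell to 33.7 ± 3.60 from 56.8 ± 12.1 FPKM (adjusted p = 0.0208), and its call was lost under both other scalings. Single livers ended the calls of Fdps (Irs1 KO replicate 1 or 2, sgGFP replicate 1, sgLacZ replicate 2) and Ebpl (Irs1 KO replicate 1).

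Genes that take up, store or export cholesterol moved in both directions in Irs1 KO livers. Of 14 regulators and uptake genes 2 rose and 1 fell. Scarb1, the receptor for high-density lipoprotein, rose to 615.2 ± 52.8 from 433.9 ± 116.7 FPKM (limma adjusted p = 0.0110), and Lrp1, a remnant receptor, rose to 419.7 ± 37.8 from 307 ± 27.1 (adjusted p = 0.000555). Npc2, a lysosomal carrier of cholesterol, fell to 8.16 ± 1.14 from 15.2 ± 3.47 FPKM (adjusted p = 0.00835). Of 12 genes of sterol fate 3 rose and 2 fell. Abcg5 and Abcg8, which pair up as the exporter of sterols into bile, rose to 374.3 ± 78.3 from 197.1 ± 41.7 and to 1007 ± 264 from 441.8 ± 91.0 FPKM. Cyp7b1, an oxysterol hydroxylase, rose to 272.3 ± 148.9 from 59.99 ± 36.9 FPKM. Soat1, which esterifies cholesterol, fell to 25.7 ± 5.81 from 55.2 ± 16.8 FPKM, and Abcg1, a cholesterol exporter, fell to 6.14 ± 1.11 from 12.5 ± 2.49. The Soat1 call was lost without Irs1 KO replicate 1 or 2 or sgGFP replicate 1 or 3, and that of Scarb1 without the sgLacZ livers and with the 2 groups fitted alone. The Abcg1 call ended under quantile normalization and without Irs1 KO replicate 4 or sgGFP replicate 1. Srebf1 was not called at 1747 ± 457 against 1499 ± 447 FPKM, nor was Srebf2 at 39 ± 6.06 against 42.9 ± 6.47.

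Of 10 genes of fatty acid synthesis 5 fell in Irs1 KO livers (Scd1, Acacb, Gpam, Acaca and Me1) and 0 rose, and of the 4 electron donors 0 were called or had an unadjusted p under 0.05. The calls of Scd1 and Acacb held under all 20 alternatives. Those of Gpam, Acaca and Me1 were lost under median scaling and without sgLacZ replicate 2. The Gpam call was also lost without Irs1 KO replicate 3 or sgGFP replicate 2, and the Acaca call without Irs1 KO replicate 4, sgGFP replicate 2 or both sgLacZ livers. For Me1 the call ended as well without Irs1 KO replicate 3, sgLacZ replicate 1 or both sgLacZ livers. Hepatocyte markers rose in 6 of 8 cases, and their sum was 81830 to 109900 FPKM against 61480 to 83420 in the controls. Stellate markers fell in 5 of 8 cases, endothelial markers in 2, and macrophage and cholangiocyte markers in 1 each. Lymphocyte markers were called, or had an unadjusted p under 0.05, in 0 of 8 cases. Such a p was reached by 25.2% of all genes tested in Irs1 KO livers. The summed stellate markers were 591.2 to 694.6 FPKM against 799.2 to 1768, without overlap. The part of these markers in the enzyme values was not tested.

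In Tbx3 KO livers, in which a T-box transcription factor was targeted, 1 of the 9 enzymes rose and 0 fell, beside 1.17% of all genes higher and 1.37% lower. Ebp ranged from 294.7 to 544.9 FPKM with a median of 411.2, against 225.7 to 347.1 in the controls, and 6 of the 7 livers were above all controls. Its log2 change was 0.54 ± 0.12 (limma adjusted p = 0.00752). Against the same controls the Ebp change was 0.39 in Irs1 KO, 0.31 in Smyd2 KO, 0.51 in Srebf1 KO and 0.06 in Bcl6 KO livers. In limma Ebp was not called in any pair of Tbx3, Irs1, Smyd2 and Srebf1 KO livers. Sqle ranged from 13.1 to 39.4 FPKM with a median of 23.0, and 5 of the 7 livers were above every control. The Sqle change did not pass the threshold (0.80 ± 0.37, adjusted p = 0.255). Of the mevalonate enzymes, other late sterol genes, electron donors, regulators and uptake genes, sterol fate genes and fatty acid genes, 0 were called by limma in Tbx3 KO livers. An unadjusted p under 0.05 was reached by 1 of the 14 regulators and uptake genes, 1 of the 10 fatty acid genes and 0 of the others. Among all genes tested 17.5% reached it. Hepatocyte markers rose in 3 of 8 cases and stellate markers fell in 3 of 8, and their part in the Ebp result was not tested. Macrophage, endothelial, cholangiocyte and lymphocyte markers were called in 0 of 8 cases each, with 1, 1, 3 and 0 at an unadjusted p under 0.05.

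In Bcl6 KO livers, in which a transcriptional repressor was targeted, 0 of the 9 enzymes were called in the limma fit, and 0 reached an unadjusted p under 0.05. Among all genes tested 2.95% were higher and 3.19% lower, and 18.1% had an unadjusted p under 0.05. Sqle stood at 9.30, 21.5, 8.65, 11.1 and 17.5 FPKM, with 1 liver above all controls and the other 4 within their range (log2 change -0.03, 95% interval -0.85 to 0.80). The median change of the 9 enzymes was -0.03, beside -0.07 for all genes tested. Nearby genes were called all the same. Mvd, the mevalonate diphosphate decarboxylase, rose to 39.5 ± 13.9 from 13.2 ± 9.85 FPKM (1.68 ± 0.38, adjusted p = 0.00403), the 1 call among 9 mevalonate enzymes. Tmem97, a partner of the sterol transport system, rose to 43.1 ± 8.18 from 19.9 ± 2.98 FPKM (1.08 ± 0.22, adjusted p = 0.00171), the 1 call among 6 late sterol genes. Scap, the escort of SREBPs, rose to 278.1 ± 38.2 from 201.8 ± 18.9 FPKM (adjusted p = 0.00169), and Lrp1 rose to 406 ± 34.04 from 307 ± 27.1 (adjusted p = 0.00130), the 2 calls among 14. Of 10 fatty acid genes Pnpla3 and Acacb rose, but Acacb lost its call without any 1 of 9 livers (each Bcl6 KO replicate, sgGFP replicates 1, 3 and 4, and sgLacZ replicate 1) and Pnpla3 without Bcl6 KO replicate 4. Of 12 sterol fate genes and 4 electron donors 0 were called by limma, and 2 and 0 had an unadjusted p under 0.05.

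Hepatocyte markers rose in 5 of 8 cases in Bcl6 KO livers, and their sum of 134400 to 190600 FPKM lay above all controls. Endothelial markers rose in 3 of 8 cases, and stellate and cholangiocyte markers fell in 1 each. Macrophage and lymphocyte markers were called in 0 of 8 cases each, with 1 each at an unadjusted p under 0.05, beside 18.1% of all genes tested. What part this has in the gene values was not tested.

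In Smyd2 KO livers, in which a lysine methyltransferase was targeted, 0 of the 9 enzymes were called, and neither was any of the 19295 genes tested (0% higher and 0% lower). In the same limma fit 1 of the 9 enzymes (Ebp) and 1384 genes (7.17%) had an unadjusted p under 0.05. The library of replicate 5 stood apart in this pathway. Sqle was 29.4 FPKM in it and 6.54 to 8.21 in the other 5, and Sc5d was 1300 FPKM in it and 631.5 to 755.8 in the others. It stood apart outside this pathway too, as in the fatty acid gene Gpam, at 1911 FPKM against 872.7 ± 237 in the other 5. Not all fatty acid genes did so. Thrsp (1409 against 2410 ± 1264 FPKM) and Elovl6 (351.7 against 313.7 ± 113.6) lay within the spread of the other 5. Without replicate 5 the Sqle log2 change was -0.80 ± 0.37 (limma adjusted p = 0.593). Again 0 of the 9 enzymes were called, beside 0% of genes higher and 0% lower, and 3 of the 9 enzymes and 1506 genes (7.83%) had an unadjusted p under 0.05. The other 5 Smyd2 KO livers held Sqle, on average 7.11 ± 0.66 FPKM, near the lowest control liver (6.60 FPKM), but without a call. Replicate 5 was left out for its high values of these enzymes. A lower Sqle mean and spread without it follow from that choice and are no separate result. None of the pathway or marker lists held a called gene in Smyd2 KO livers, by limma in the fit of all livers. An unadjusted p under 0.05 was reached by 7 of 10 fatty acid genes, 1 of 9 mevalonate enzymes, 1 of 4 electron donors, 2 of 14 regulators and uptake genes, 2 of 12 sterol fate genes, 4 of 8 hepatocyte markers, 1 of 8 macrophage markers (Marco) and 0 of the genes in the other lists.

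The knockouts share the same 6 control livers, so their changes against control are not independent. The knockouts were therefore also compared with each other. An F test in the limma fit found 7 of the 9 enzymes to differ among the 5 knockouts, where 14.5% of all genes did. The adjusted p was 6.214e-06 for Sqle, 1.464e-06 for Cyp51, 1.831e-08 for Msmo1, 0.000105 for Nsdhl, 0.000195 for Hsd17b7, 0.0331 for Lss and 0.0366 for Ebp. Dhcr7 (0.0516) and Sc5d (0.325) did not pass. The count was 8 of 9 without the library labelled Srebf1 KO replicate 1, and without Smyd2 KO replicate 5 it was 8 of 9 as well.

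Over the 10 pairs of knockouts 24 of 90 contrasts were called, and 30 without the library labelled Srebf1 KO replicate 1. Srebf1 KO livers were higher in 21 of them, all that involved Srebf1 KO. Against Bcl6 KO 6 of the 9 enzymes were higher in Srebf1 KO (8.76% of all genes differed in either direction), the sixth being Ebp. Against Irs1 KO 6 of 9 were higher (1.6% of all genes), the sixth being Dhcr7, and the Sqle difference of 3.24 ± 0.42 on the log2 scale was the widest of the 24. Against Smyd2 KO 5 of 9 were higher (0.0777% of all genes). Against Tbx3 KO 4 of 9 were higher (0.943% of all genes), namely Cyp51, Msmo1, Nsdhl and Hsd17b7. Msmo1 differed from Tbx3 KO by 2.24 ± 0.23 (limma adjusted p = 3.427e-07).

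The remaining 3 calls involved Tbx3 KO livers. Sqle was lower in Irs1 KO than in Tbx3 KO livers by a log2 difference of -1.94 ± 0.39 (limma adjusted p = 0.00469), and the 5 Irs1 KO livers (at most 7.39 FPKM) lay below all 7 Tbx3 KO livers (at least 13.1). Cyp51 was lower there too (-1.13 ± 0.30, adjusted p = 0.0350), with at most 26.8 FPKM in Irs1 KO and at least 35.1 in Tbx3 KO livers. These were 2 of 9 enzymes, beside 2.81% of all genes in either direction. Ebp was lower in Bcl6 KO than in Tbx3 KO livers (-0.48 ± 0.12, adjusted p = 0.00913), 1 of 9 enzymes beside 9.31% of all genes. In the 4 other pairs 0 of 9 enzymes were called by limma. Those pairs were Bcl6 KO with Irs1 KO (11.3% of all genes called), Bcl6 KO with Smyd2 KO (5.83%), Irs1 KO with Smyd2 KO (4.26%) and Smyd2 KO with Tbx3 KO (0.902%). An unadjusted p under 0.05 was reached by 4 enzymes and 24.2% of all genes for Bcl6 KO with Irs1 KO. For Bcl6 KO with Smyd2 KO it was 0 enzymes and 16%, and for Irs1 KO with Smyd2 KO 0 enzymes and 20.2%. For Smyd2 KO with Tbx3 KO it was 3 enzymes and 13.7%.

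**Figure D4:**
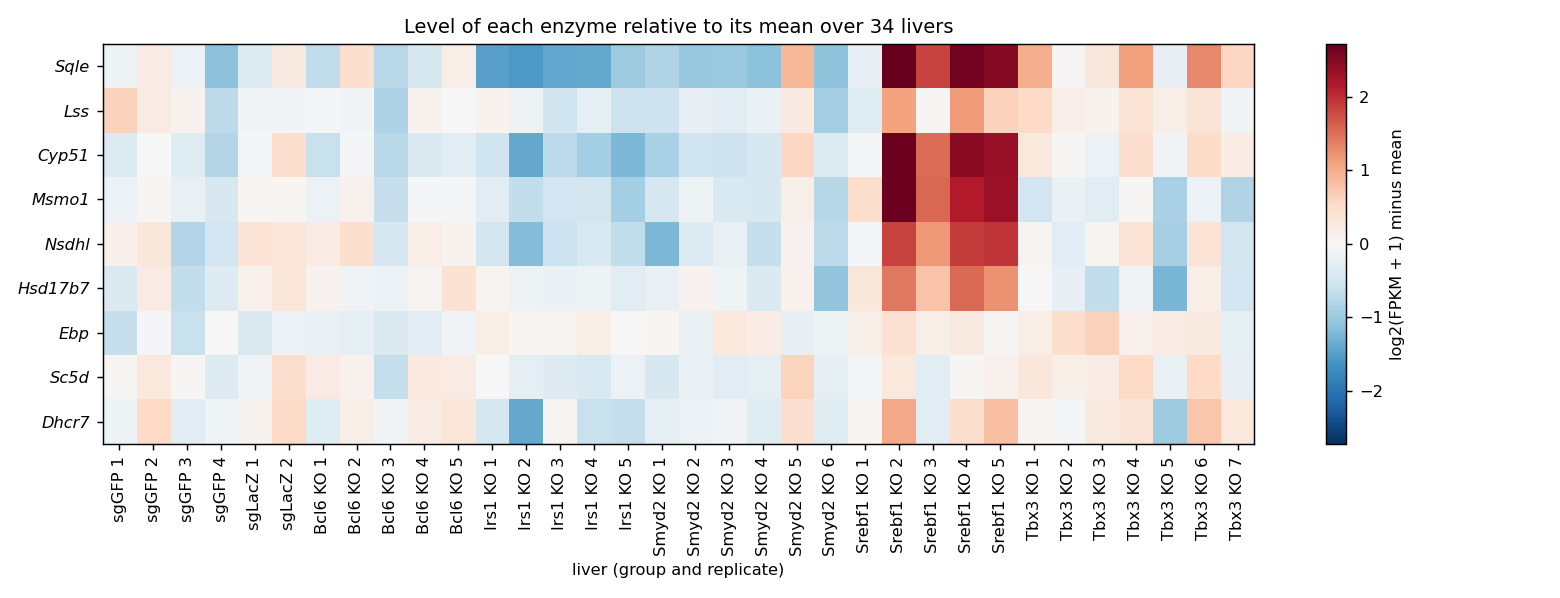
Level of each enzyme in each of the 34 livers as log2(FPKM + 1) minus its mean over all livers (red above, blue below). Srebf1 KO replicates 2 to 5 are above the mean for Sqle, Cyp51, Msmo1, Nsdhl and Hsd17b7, and the 5 Irs1 KO livers are below it for Sqle.

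The enzymes also varied together between livers of the same group. With group means removed, the 36 pairs of enzymes had a median Pearson r of 0.62 over the 34 livers, from -0.13 to 0.87, where the enzymes share each liver's library and depth. Sqle and Cyp51 stood at the top of that range. Ebp was the exception, with a median r of 0.10 against the other 8. Without the 2 livers farthest from their group means, the library labelled Srebf1 KO replicate 1 and Smyd2 KO replicate 5, the median r was again 0.62, from -0.10 to 0.75. The group means removed there were still those of all livers. The remaining livers of these 2 groups thus kept a shared offset, which can raise r. This value therefore does not show how far the enzymes vary together within groups without the 2 livers. The mean level of the 9 enzymes, relative to all livers, was -0.49 to 0.24 in the controls, 0.04 to 1.57 in Srebf1 KO (median 1.33), -0.74 to -0.33 in Irs1 KO and -0.45 to 0.46 in Tbx3 KO livers on the log2 scale. It was -0.52 to 0.09 in Bcl6 KO and -0.63 to 0.33 in Smyd2 KO livers.

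Outside the 9, the 10 genes whose levels followed that mean most closely within groups were Hmgcs1, Fdps, Idi1, Mapk4, Acaca, Pmvk, Rdh11, Acly, Acss2 and Gm39012, out of 19286 genes. Hmgcs1 had an r of 0.90 and a rho of 0.84 and Fdps an r of 0.89 and a rho of 0.87, over 34 livers. The tenth, Gm39012, had an r of 0.65 and a rho of 0.67. Without the same 2 livers r was 0.83 for Hmgcs1, 0.83 for Fdps and 0.61 for Gm39012. The group means removed were again those of all livers, so the same limit holds for every r given without the 2 livers. Of these genes, Hmgcs1, Fdps, Idi1 and Pmvk belong to the mevalonate pathway, and Acaca, Acly and Acss2 supply or use acetyl-CoA for fatty acids. Srebf2 ranked 823 by the same measure (r 0.33), and Srebf1 stood near the other end (r -0.33, or 0.01 without the 2 livers).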

How the data were processed

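Total RNA of 34 mouse livers was sequenced with a stranded total RNA kit, per the labels' protocols. The authors deposited 1 table of FPKM per gene symbol. Reads were counted with featureCounts 1.6.4, and mm10 and GRCh38 are named with no role, per the submitters' processing notes. The sources used here do not name the aligner, annotation or strand setting. Nothing but the numbering of the labels says that livers come from separate animals; if they do not, the p-values reflect only how these samples vary, which may be technical. Replicates with equal numbers did not pair.

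Genes reaching an FPKM of 1 in 5 livers (19295) were tested on log2(FPKM + 1) with limma 3.58.1 in R 4.3.3 (1 fit, 6 levels, intensity trend), after the steps were tested on simulated data. The pooled control comprised sgGFP and sgLacZ, and a separate fit compared these. Intervals are 95%. Depth was inferred from FPKM steps. Coordinates are GENCODE M21 (GRCm38). Start regions are RefSeq.

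Named were the 9 enzymes, Srebf1, Srebf2, Insig1, Hmgcs1, Tm7sf2, Lbr and Fdft1, up to 4 called genes per pathway list by smallest adjusted p, and the 10 genes most alike. Abcg1, Me1, Marco, 0610007P14Rik, Serpina1c, Akap9 and 4930483K19Rik were added after their values were seen. A few genes picked by this rule, or by the lists, are left out of names and list counts. Members and lists were chosen with earlier results of these data known. Alternatives were a pseudocount of 0.1, no filter or a filter at an FPKM of 5, median scaling, quantile normalization, no trend, a replicate block, sgGFP alone as control, each comparison alone, and each liver left out.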

Additional observations from a re-analysis of the deposited data

Results flagged for a closer look

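A single liver stood far from the rest of its group for 7 of the 54 combinations of enzyme and group examined by Dixon's criterion. Chance alone marks about 1 in 20 such groups. The enzymes varied together between livers, so the 54 checks were not independent and that rate does not judge the 7. In Smyd2 KO replicate 5, 4 enzymes were each the highest of 6 livers. Sqle was 29.4 FPKM there, with the others at 6.54 to 8.21, and Cyp51 was 58.3 with the others at 20.7 to 30.2. Sc5d was 1300 FPKM with the others at 631.5 to 755.8, and Dhcr7 was 238.5 with the others at 138.1 to 162.5.

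In Bcl6 KO replicate 3, 2 enzymes were the lowest of 5 livers. Lss was 26.3 FPKM with the others at 45.02 to 51.1, and Sc5d was 548.9 with the others at 932.1 to 1032. In Irs1 KO replicate 5, Sqle was 7.39 FPKM with the others at 4.56 to 5.23. Srebf1 KO replicate 1 was not marked for any enzyme by the same criterion, although it was the lowest of 5 for Sqle, Lss, Cyp51, Msmo1, Nsdhl and Hsd17b7.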

How the results depend on the processing

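Counts of called enzymes held within 1.5 times for Bcl6 KO and Smyd2 KO (0 throughout), for the knockouts compared with each other, and for the control guides, under every alternative run. In Irs1 KO the count of 1 (Ebp) became 0 with no filter on low values, 0 with no intensity trend, 0 with sgGFP alone as control, and 3, all lower (Sqle, Cyp51 and Msmo1), with the 2 groups fitted alone. Leaving out single livers gave 0 to 2. It gave 0 without Irs1 KO replicate 1, 2 or 4, sgGFP replicate 1 or 3, or sgLacZ replicate 1, and 2 without sgGFP replicate 4. Without Irs1 KO replicate 3 the count did not include Ebp, whose call was lost there. An equal count can thus hold another enzyme. Dhcr7 was called lower in Irs1 KO livers under 1 alternative (limma adjusted p = 0.0284). In Srebf1 KO the count of 5 became 1 (Msmo1) with the 2 groups fitted alone, and 2 to 6 with single livers left out. It was 2 without Srebf1 KO replicate 2 or 4, and 3 without sgGFP replicate 1 or 3. In Tbx3 KO the count of 1 became 0 with the 2 groups fitted alone. The cause was not tested, except that fitting 2 groups alone uses fewer livers.

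Replicate numbers did not pair the livers: 83 same-numbered pairs had a median correlation of -0.005 in their deviations from group means. With the replicate block the counts were 2 in Irs1 KO (Ebp higher, Sqle lower), 6 in Srebf1 KO, 1 in Tbx3 KO and 0 in the other 2.

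Signs turned only for changes near 0, none of them called, given on the log2 scale. Under median scaling the turned values were Sqle 0.059, Msmo1 0.049, Sc5d 0.06 and Dhcr7 0.04 (Bcl6 KO), Hsd17b7 0.207 (Irs1 KO), Sc5d 0.087 and Lbr 0.106 (Srebf1 KO), Nsdhl 0.038 and Dhcr7 0.12 (Tbx3 KO). Under quantile normalization the turned values were Sqle 0.068 and Msmo1 0.02 (Bcl6 KO), Hsd17b7 0.095 (Irs1 KO), Lbr 0.065 (Srebf1 KO), Nsdhl 0.059 and Dhcr7 0.01 (Tbx3 KO). With the replicate block it was Hsd17b7 0.019 (Irs1 KO). With sgGFP alone as control the turned values were Sqle 0.053, Msmo1 0.044, Sc5d 0.039 and Dhcr7 0.056 (Bcl6 KO), Hsd17b7 0.149 (Irs1 KO), Cyp51 0.001 and Hsd17b7 0.035 (Smyd2 KO), Sc5d 0.023 (Srebf1 KO), Nsdhl 0.1 and Dhcr7 0.095 (Tbx3 KO). With single livers left out the ranges across 0 were Sqle -0.203 to 0.103, Dhcr7 -0.124 to 0.05, Msmo1 -0.104 to 0.082, Sc5d -0.109 to 0.146, Ebp -0.006 to 0.118 and Nsdhl -0.035 to 0.258 in Bcl6 KO, Hsd17b7 -0.131 to 0.068 in Irs1 KO, Hsd17b7 -0.245 to 0.026 in Smyd2 KO, Sc5d -0.126 to 0.04 and Lbr -0.11 to 0.123 in Srebf1 KO, Dhcr7 -0.116 to 0.17 and Nsdhl -0.244 to 0.043 in Tbx3 KO. The cause was not tested.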
